A study of Mus musculus with 12 samples.

Results

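The caveolin and cavin genes were followed on 12 one-colour Affymetrix mouse arrays through all single-gene probe sets of Cav1, Cav2, Cavin1, Cavin2, Cavin3 and Ehd2, which were 15 of the 45037 probe sets tested. Cavin1 and Cavin2 had 3 probe sets each, Cav2 had 2, Ehd2 had 5, and Cav1 and Cavin3 had 1 each. The genes were selected on the difference between adult cells on APdE9 and WT sections, already known for these arrays, in which Cavin2 was among the genes that differed most. Values of that comparison are therefore given as a description without a test.

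Each array was hybridised with RNA from eGFP-labelled cultured astrocytes (green fluorescent) of C57Bl/6j mice, which had spent 22 h on a slice of mouse brain, were loosened with trypsin and were taken off by suction. The groups, each of 3 arrays, were adult cells (6 to 8 weeks) on APdE9 sections, adult cells on wild-type (WT) sections, neonatal cells on APdE9 sections and neonatal cells on WT sections. The labels give the neonatal age as 3 d, and the culture protocol gives 2 days. APdE9 sections came from mice that express APPSwe, a mouse and human hybrid of the amyloid precursor protein, and the presenilin variant PS1-dE9, each from a mouse prion protein promoter. WT sections came from littermates of those mice, so the section and not the astrocytes carried the transgenes. Percoll isolation, DMEM/F12 medium and G5 supplement were used for the adult cultures alone, with DMEM for the neonatal ones, and their effects cannot be separated from that of age. Per the labels the replicates are biological and each holds pooled samples, so a p-value here reflects the spread between pools, part of which may be technical.

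Caveolae are small flask-shaped pits of the plasma membrane that are rich in cholesterol. Caveolins are hairpin membrane proteins that shape the pit, cavins are cytoplasmic proteins that coat it, and the ATPase EHD2 gathers at its neck and holds it at the surface. Caveolae are abundant in endothelium, smooth muscle, fat cells and fibroblasts, and cultured astrocytes have been reported to make caveolins. They flatten under membrane stretch and have roles in signalling, lipid handling and endocytosis.

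In the values below, on a log2 scale, the median over the 12 arrays is 0 for every probe set, so that groups can be compared within a probe set. The level of a gene and the presence of a marker cannot be read from such values, nor can genes be ranked by level. Differences were taken from a linear model of the 4 group means (limma) over all probe sets, with standard errors (SE), 3 arrays per group, and p-values adjusted by Benjamini-Hochberg over the 45037 probe sets. A probe set was called at an adjusted p below 0.05.

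Upstream sequences are shown for Cavin2, the gene with the widest range of values, and for Cav1 and Cav2, neighbouring genes on chromosome 6 that ran opposite to each other between the age groups. They are the 250 bases before the annotated start in RefSeq (build GRCm38.p6), at chr1:51288876-51289125, chr6:17306085-17306334 and chr6:17280935-17281184, all on the plus strand and written 5′ to 3′. Capitals mark matches, on either strand, to the 4 motifs searched.
Cavin2: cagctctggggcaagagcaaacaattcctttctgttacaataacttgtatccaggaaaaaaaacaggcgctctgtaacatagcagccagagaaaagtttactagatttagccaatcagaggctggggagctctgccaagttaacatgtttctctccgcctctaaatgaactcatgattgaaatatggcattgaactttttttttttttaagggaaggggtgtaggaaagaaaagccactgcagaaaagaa
Cav1: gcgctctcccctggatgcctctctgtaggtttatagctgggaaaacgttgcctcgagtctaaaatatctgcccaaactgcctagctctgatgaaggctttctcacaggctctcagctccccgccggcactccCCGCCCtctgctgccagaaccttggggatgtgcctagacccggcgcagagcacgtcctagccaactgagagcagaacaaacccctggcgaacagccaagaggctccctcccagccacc
Cav2: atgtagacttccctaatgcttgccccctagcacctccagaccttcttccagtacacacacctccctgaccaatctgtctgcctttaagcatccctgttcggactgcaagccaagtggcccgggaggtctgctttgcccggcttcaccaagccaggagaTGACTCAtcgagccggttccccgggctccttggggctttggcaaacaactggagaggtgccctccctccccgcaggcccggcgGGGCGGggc

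The motifs were CATTCC (TEAD factors), GGGCGG (Sp1), TGANTCA (AP-1) and the CArG box (SRF). Cavin2 held none of the 4 in its window. Cav1 held 1 match to GGGCGG, printed as its reverse complement, before its first annotated start, and none before its second. Cav2 held 1 match each to GGGCGG and TGANTCA. Of 32851 such windows in the table, 12.6% held CATTCC, 32.7% GGGCGG, 6.75% TGANTCA and 1.47% a CArG box. Windows were found for 5 of the 6 genes. No match says only that these letters are not in this window. The 2 marked matches of Cav2 do not overlap.

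Cavin2, a cavin that binds phosphatidylserine and protein kinase C and promotes membrane curvature, was high in the adult cells on WT sections and lower in the other 3 groups. On probe set 1416779_at it read 0.43, 0.09 and 0.63 in adult cells on APdE9 sections, against 4.31, 4.68 and 4.45 in adult cells on WT sections. In neonatal cells it read -1.28, -0.93 and -1.11 on APdE9 sections, against -0.72, -0.09 and -0.13 on WT sections. The 4 groups did not overlap on this probe set, and their order was adult WT, adult APdE9, neonatal WT and neonatal APdE9. The other 2 probe sets gave the same order of means. Fewer cells of a type that makes a transcript and less of it per cell cannot be told apart on these arrays. Probe set 1416778_at read 0.23, 0.18 and 0.61 in adult cells on APdE9 sections, against 3.53, 3.71 and 3.51 in adult cells on WT sections. On 1443832_s_at the values were 0.17, 0.46 and 0.27 in adult cells on APdE9 sections, against 3.64, 4.34 and 4.05 in adult cells on WT sections.

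**Figure D1:**
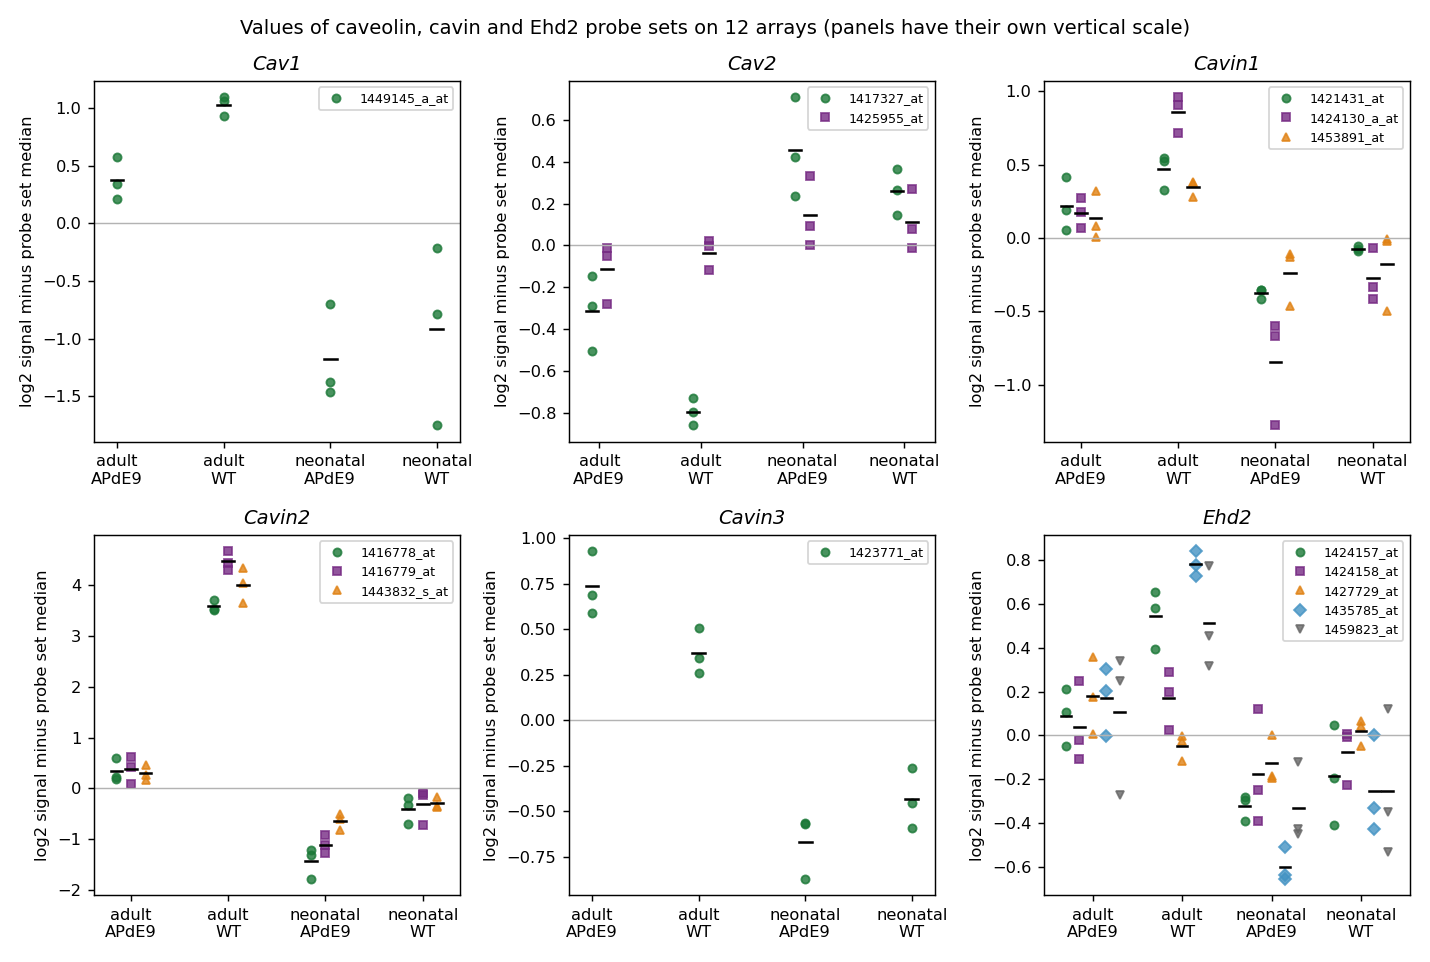
Log2 signal minus the median of each probe set (vertical axis, own scale per panel) on each array for the 6 genes, by group from left to right (adult cells on APdE9 and WT sections, neonatal cells on APdE9 and WT sections). Each point is 1 array, colour and shape mark the probe set and the black bar is the mean of 3 arrays, with Cavin2 of adult cells on WT sections between 3.51 and 4.68 on its 3 probe sets.

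In adult cells the Cavin2 differences between APdE9 and WT sections were -3.25 ± 0.18, -4.09 ± 0.19 and -3.71 ± 0.16 (log2 ± SE, n = 3 arrays per group), or 9.48-fold, 17.1-fold and 13.1-fold lower on APdE9 sections. By size these ranked 17, 7 and 12 among all probe sets. The ranking comes from the comparison taken to have chosen the genes. Over the alternatives run, the 3 differences lay between -3.38 and -2.87, between -4.22 and -3.56 and between -3.89 and -3.33.

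The difference in neonatal cells was taken between neonatal arrays, while its spread was estimated from all 12 arrays. Cavin2 fell on APdE9 sections by probe set 1416778_at, with a log2 difference of -1.03 ± 0.18, 2.04-fold lower (limma adjusted p = 0.0113). This probe set read -1.31, -1.78 and -1.21 on APdE9 sections, against -0.70, -0.33 and -0.18 on WT sections, with no overlap. The other probe sets were at -0.79 ± 0.19 (adjusted p = 0.0538) and -0.35 ± 0.16 (adjusted p = 0.411), also with no overlap of the groups. With the replicate number as a block the adjusted p was 0.00483 for 1416778_at and 0.0235 for 1416779_at, which then passed. The adjusted p of 1416778_at was 0.0647 without neonatal WT replicate 2 and 0.0672 when only the 6 neonatal arrays were fitted. Over all 17 alternatives its adjusted p lay between 0.00483 and 0.0672.

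Of the 15 probe sets of the family, the called one of Cavin2 was the 1 that passed in neonatal cells, lower on APdE9 sections, where 1.42% of all probe sets were called lower and 0.582% higher. Without overlap, 6 were lower and 0 higher (8.22% and 6.82% of all probe sets). The median difference of the 15 was -0.24, beside 0.01 over all probe sets. When the 1 value per gene was the mean of its probe sets, Cavin2 (-0.72 ± 0.13, adjusted p = 0.00979) and Cavin1 (-0.31 ± 0.07, adjusted p = 0.0334) were the 2 genes of 6 that passed, where 2.55% of all genes were called lower and 1.21% higher.

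Caveolin 1, the main structural protein of caveolae outside striated muscle, had 1 probe set, on which adult arrays were above all neonatal ones. It read 0.57, 0.21 and 0.34 in adult cells on APdE9 sections, against 1.06, 1.09 and 0.93 in adult cells on WT sections. In neonatal cells it read -0.70, -1.38 and -1.46 on APdE9 sections, against -0.21, -0.78 and -1.75 on WT sections. The adult groups did not overlap, while the neonatal groups overlapped widely, with an SD of 0.42 on APdE9 and 0.78 on WT sections. The section difference was -0.65 ± 0.31 in adult cells and -0.26 ± 0.31 in neonatal cells (limma adjusted p = 0.896). In neonatal cells it lay between -0.68 and 0.09 over the alternatives, and was above 0 without neonatal WT replicate 1.

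Caveolin 2, which needs caveolin 1 to reach the cell surface, ran the other way on its probe set 1417327_at. It read -0.15, -0.50 and -0.29 in adult cells on APdE9 sections, against -0.86, -0.73 and -0.80 in adult cells on WT sections. In neonatal cells it read 0.71, 0.24 and 0.42 on APdE9 sections, against 0.37, 0.26 and 0.15 on WT sections. The adult groups were apart, with the APdE9 arrays higher by 0.48 ± 0.13, and the neonatal groups overlapped (0.20 ± 0.13, adjusted p = 0.688). The second probe set, 1425955_at, moved little, from -0.28 to 0.33 over the 12 arrays, and no tested comparison called it.

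**Figure D2:**
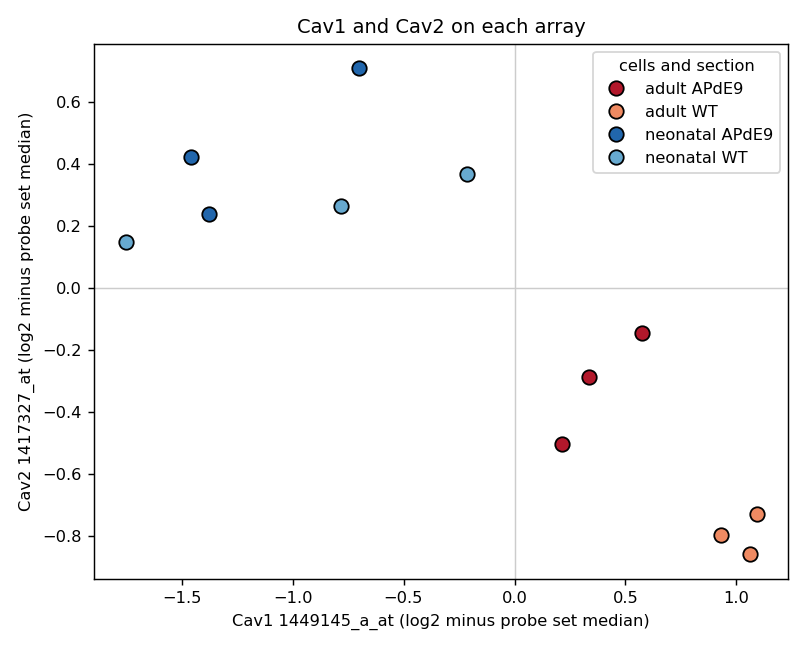
Cav1 probe set 1449145_a_at (horizontal axis) and Cav2 probe set 1417327_at (vertical axis) on each of the 12 arrays, both as log2 signal minus the probe set median, coloured by group. Adult arrays have the higher Cav1 and the lower Cav2 values, and the adult WT arrays lie farthest to the lower right.

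Cavin1, the cavin without which caveolae do not form, was measured by 3 probe sets. On 1424130_a_at it read 0.18, 0.07 and 0.27 in adult cells on APdE9 sections, against 0.91, 0.71 and 0.96 in adult cells on WT sections. The neonatal values were -0.60, -0.67 and -1.28 on APdE9 sections, against -0.07, -0.34 and -0.42 on WT sections. No 2 groups overlapped on this probe set, in the same order as for Cavin2. Its section differences were -0.69 ± 0.16 in adult cells and -0.57 ± 0.16 in neonatal cells (adjusted p = 0.126). For the other probe sets they were -0.25 ± 0.10 and -0.21 ± 0.15 in adult cells, where the groups overlapped, and -0.30 ± 0.10 (adjusted p = 0.216) and -0.06 ± 0.15 (adjusted p = 0.963) in neonatal cells.

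Cavin3, which binds protein kinase C delta and is often silenced in tumours, was the cavin that was higher in adult cells on APdE9 sections. It read 0.59, 0.93 and 0.69 there, against 0.26, 0.34 and 0.50 in adult cells on WT sections. The neonatal values were -0.57, -0.87 and -0.57 on APdE9 sections, against -0.59, -0.45 and -0.26 on WT sections. The adult groups did not overlap and the neonatal groups did. The section difference was 0.37 ± 0.13 in adult cells and -0.24 ± 0.13 in neonatal cells (adjusted p = 0.563).

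The 5 probe sets of Ehd2 disagreed. Probe set 1435785_at read 0.30, -0.00 and 0.20 in adult cells on APdE9 sections, against 0.84, 0.78 and 0.73 in adult cells on WT sections. It read -0.66, -0.51 and -0.64 in neonatal cells on APdE9 sections, against 0.00, -0.43 and -0.33 on WT sections. This probe set gave section differences of -0.61 ± 0.12 in adult cells and -0.35 ± 0.12 in neonatal cells (adjusted p = 0.22), without overlap in either. Probe set 1424157_at was also lower on APdE9 sections in adult cells, by -0.45 ± 0.12, while 1427729_at was higher by 0.23 ± 0.10. Probe set 1427729_at varied little, with an SD of 0.15 over the 12 arrays, and 30.4% of all probe sets had a lower SD. The other 2 were at -0.13 ± 0.14 and -0.41 ± 0.20, with overlap. Across the 12 arrays the pairs of Ehd2 probe sets correlated between 0.16 and 0.88, against 0.98 to 0.99 for the pairs of Cavin2, as a description.

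In the adult cells 7 of the 15 probe sets were lower on APdE9 sections without overlap and 3 higher, where 13.6% of all probe sets were lower and 17.2% higher in that way. The median difference of the 15 was -0.41, beside 0.04 over all probe sets. All 3 probe sets of Cavin2 are among the 7, in the comparison taken to have chosen the genes. The counts and the median are therefore a description and not a result about the family. Differences between the adult and the neonatal section effect hold the adult comparison and were not tested. The effects of Cavin2 stood at -3.25, -4.09 and -3.71 in adult cells, beside -1.03, -0.79 and -0.35 in neonatal cells.

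**Figure D3:**
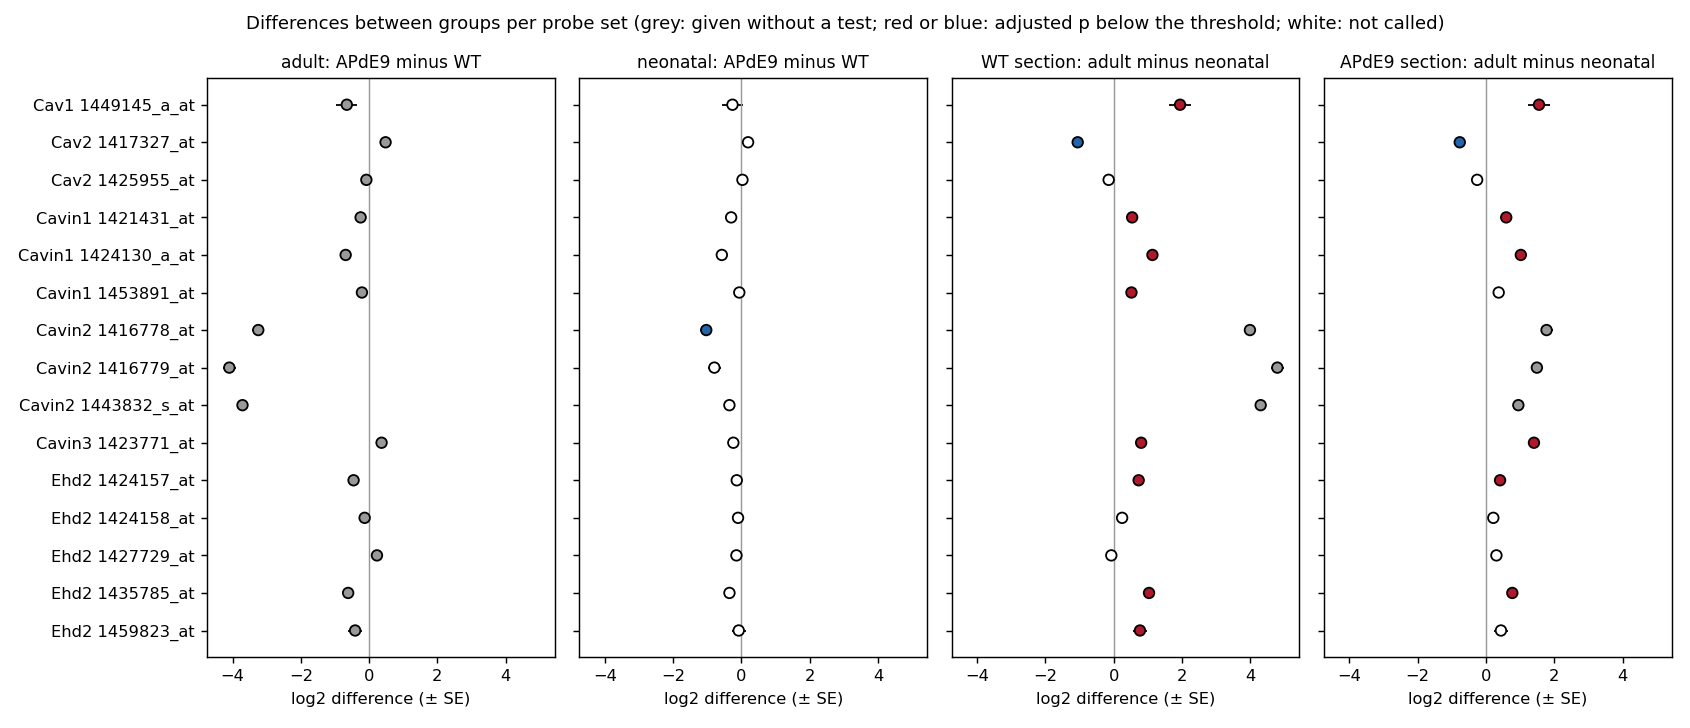
Log2 differences between groups with bars of 1 SE (horizontal axis) for the 15 probe sets (rows), from left to right for section in adult cells, section in neonatal cells, age on WT sections and age on APdE9 sections. Grey points are given without a test, red and blue points were called higher and lower and white points were not called, with 8 red and 1 blue for age on WT sections.

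Signals of most of the family were higher in adult than in neonatal cells, and those of Cav2 were lower. Both age comparisons share their adult arrays with the one taken to have chosen Cavin2, so the age differences of Cavin2 are given without a test. The 2 age comparisons share no array. On WT sections 11 of the 15 probe sets were called higher and 1 lower, and 8 and 1 of the 12 other than Cavin2, where 12.2% of all probe sets were called higher and 10.8% lower. On APdE9 sections 9 were called higher and 1 lower, and 6 and 1 of the 12 other than Cavin2, where 8.04% were called higher and 8.39% lower. The median differences of the 15 were 0.77 and 0.59, and those of the 12 other than Cavin2 were 0.64 and 0.43, beside 0.03 and 0.06 over all probe sets.

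Cav1 was higher in adult cells by 1.94 ± 0.31 on WT sections, 3.85-fold (limma adjusted p = 0.000546), and by 1.55 ± 0.31 on APdE9 sections, 2.93-fold (adjusted p = 0.00384). The adult and neonatal arrays did not overlap on either section. Cav2 by 1417327_at was lower in adult cells by -1.05 ± 0.13 on WT sections (adjusted p = 6.24e-05) and by -0.77 ± 0.13 on APdE9 sections (adjusted p = 0.00112). Both calls of Cav1 and both of this Cav2 probe set held in all 17 alternatives. These 2 neighbouring genes thus differed between the ages in opposite directions.

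Cavin2 was higher in adult cells on WT sections by 3.99 ± 0.18, 4.79 ± 0.19 and 4.30 ± 0.16 on its 3 probe sets, or 15.9-fold, 27.7-fold and 19.8-fold. On APdE9 sections the differences were 1.77 ± 0.18, 1.49 ± 0.19 and 0.95 ± 0.16, or 3.42-fold, 2.81-fold and 1.93-fold. The larger of these differences rest on the same high adult WT arrays as the section difference of Cavin2. Cavin3 was at 0.80 ± 0.13 on WT sections (adjusted p = 0.000561) and at 1.41 ± 0.13 on APdE9 sections (limma adjusted p = 6.81e-06). Whether its age difference depended on the section was not tested.

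Cavin1 rose on WT sections by all 3 probe sets, most by 1424130_a_at at 1.13 ± 0.16 (adjusted p = 0.000263). On APdE9 sections the same probe set was at 1.02 ± 0.16 (adjusted p = 0.000834) and 1421431_at at 0.59 ± 0.10 (adjusted p = 0.00135), while 1453891_at, at 0.37 ± 0.15, was not called (adjusted p = 0.115, or 0.0487 under the replicate block). Ehd2 rose by 3 of its 5 probe sets on WT sections and by 2 on APdE9 sections, most by 1435785_at at 1.04 ± 0.12 (adjusted p = 3.96e-05) and 0.77 ± 0.12 (adjusted p = 0.000625). With the replicate number as a block 1427729_at (adjusted p = 0.0322) and 1459823_at (adjusted p = 0.0239) of Ehd2 passed as well on APdE9 sections (0.0653 and 0.176 without the block). The call of 1424157_at on APdE9 sections (0.41 ± 0.12, adjusted p = 0.0383) was lost in 8 of 17 alternatives, with adjusted p up to 0.125 without adult APdE9 replicate 3. On WT sections 1453891_at of Cavin1 (0.52 ± 0.15, adjusted p = 0.0216) and 1459823_at of Ehd2 (0.77 ± 0.20, adjusted p = 0.0138) lost their calls without neonatal WT replicate 1 (0.0844 and 0.0614) and without adult WT replicate 3 (0.0609 and 0.0588). The first of them also lost it without adult WT replicate 1 (0.0638) and with quantile normalization (0.0602), and the second without neonatal WT replicate 2 (0.054).

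Markers of other cell types moved with these comparisons, and their part in the caveolar results was not tested. Microglia markers were lower in adult than in neonatal cells for 10 of 11 genes on each section. They were higher for 1 on WT sections and 0 on APdE9 sections. Astrocyte markers were lower for 9 of 12 and higher for 2 on WT sections, and lower for 8 and higher for 1 on APdE9 sections. Fibroblast and meningeal markers were higher in adult cells for 6 of 12 genes and lower for 2 on WT sections, and higher for 5 and lower for 3 on APdE9 sections. Of 11 endothelial markers 3 were higher and 4 lower in adult cells on WT sections, and 4 higher and 3 lower on APdE9 sections. By gene, 14.9% of all 18193 genes were called higher and 15.2% lower on WT sections, and 11.7% and 11.9% on APdE9 sections.

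Between sections, endothelial markers, whose cells are rich in caveolae, were higher in adult cells on APdE9 sections without overlap for 6 of 11 genes and lower for 0, where 20.3% of all genes were higher and 15.7% lower in that way. Of 12 mural cell markers 4 were lower and 2 higher, and of 12 fibroblast and meningeal markers 7 were lower and 2 higher. The mean centred value of the fibroblast and meningeal list lay between 0.00 and 0.26 in adult cells on APdE9 sections, against 0.51 to 0.63 on WT sections. That of the mural list lay between -0.17 and -0.10, against 0.34 to 0.45, while the median difference of its 12 genes was -0.02. Its largest differences without overlap were Tagln at -3.37 ± 0.15, Cnn1 at -2.70 ± 0.38 and Acta2 at -1.38 ± 0.13. In the other direction Anpep was at 1.04 ± 0.15. The 3 probe sets of Acta2 ranged from -2.61 to -0.10. In neonatal cells 1 of 11 endothelial markers fell on APdE9 sections, 2 of 12 mural markers rose, and 2 fibroblast and meningeal markers rose and 2 fell, where 1.21% of genes were called higher and 2.55% lower. The mean centred value of the endothelial list lay between -0.13 and -0.05 in neonatal cells on APdE9 sections, against 0.02 to 0.10 on WT sections. The median difference of its 11 genes was 0.002, beside 0.002 over all genes, with the 1 called gene, Emcn, at -1.10 ± 0.22. Of 11 microglia markers 2 rose in neonatal cells on APdE9 sections and 0 fell, and in adult cells 5 were higher and 1 lower. The 2 that rose, Aif1 and Cd68, both lost their call without neonatal WT replicate 2 (limma adjusted p = 0.163 and 0.115) or 3, without any 1 of the neonatal APdE9 arrays and with only the 6 arrays compared. The endothelial marker that fell, Emcn, lost it without neonatal WT replicate 2 (0.0908) or 3, without neonatal APdE9 replicate 1 or 2, with only the 6 arrays and with quantile normalization. The neonatal calls of Dcn, Col1a1, Lum, Fbln1, Gjb6 and Olig1 on the other marker lists were each lost under at least 1 alternative. Astrocyte markers fell in neonatal cells for 6 of 12 genes and rose for 0, and in adult cells 4 were higher and 6 lower. Of 9 oligodendrocyte markers 2 rose and 2 fell in neonatal cells, and 6 were higher and 0 lower in adult cells. Of 10 neuron markers 0 rose or fell in neonatal cells, and 0 were higher and 3 lower in adult cells. With age, oligodendrocyte markers rose for 0 genes and fell for 3 on WT sections, and rose for 2 and fell for 3 on APdE9 sections. Neuron markers rose for 2 and fell for 2 on WT sections and rose for 1 and fell for 1 on APdE9 sections. Mural markers rose for 4 and fell for 1 on WT sections and rose for 1 and fell for 2 on APdE9 sections. Whether the cultures held the labelled cell type cannot be judged from marker levels here, since levels had been removed.

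Among 17 measured genes of caveola accessory and regulatory proteins, Flna, the actin crosslinker filamin A to which caveolin 1 binds, fell in neonatal cells on APdE9 sections (-0.39 ± 0.08, limma adjusted p = 0.0173) and none of the list rose. The call was lost without neonatal WT replicate 2 or 3, without neonatal APdE9 replicate 1 or 3 and with only the 6 arrays (adjusted p up to 0.0596). In adult cells 6 of the 17 were lower without overlap and 3 higher, where 15.7% of all genes were lower and 20.3% higher in that way. Those most lower were Filip1l, a filamin-interacting protein (-2.30 ± 0.12), the receptor tyrosine kinase gene Ror1 (-0.92 ± 0.11), the EHD family ATPase gene Ehd4 (-0.88 ± 0.13) and the ubiquitin ligase gene Nedd4 (-0.84 ± 0.18). The 3 probe sets of Ror1 ranged from -1.75 to -0.09 and the 3 of Nedd4 from -1.76 to -0.26. Flot1, which encodes a flotillin of other membrane microdomains, fell in neonatal cells (-0.57 ± 0.10, adjusted p = 0.00925, and 0.0512 without neonatal WT replicate 2) and was at -0.45 ± 0.10 in adult cells. Of the 2 flotillin genes, neither was called between the ages.

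With age, genes of the accessory list went both ways. On WT sections 5 of 17 rose and 4 fell, where 14.9% of all genes were called higher and 15.2% lower. On APdE9 sections 2 rose and 5 fell, where 11.7% and 11.9% were. Dnm1, a dynamin that cuts membrane necks, rose by 1.33 ± 0.08 and 1.07 ± 0.08 on WT and APdE9 sections (limma adjusted p = 1.25e-07 and 1.19e-06). Its 2 probe sets differed in size, at 0.46 and 2.19 on WT sections. Ehd4 fell, at -1.27 ± 0.13 on WT sections (adjusted p = 1.26e-05) and -2.41 ± 0.13 on APdE9 sections (adjusted p = 5.62e-08), while 3 and 2 of the 5 probe sets of its relative Ehd2 rose. Cavin4, the cavin of striated muscle, rose on WT sections (1.28 ± 0.35, adjusted p = 0.0153), a call lost without neonatal WT replicate 2 (0.0547), adult WT replicate 1 (0.0636) or adult WT replicate 2 (0.0506).

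Of 18 receptors and enzymes reported in caveolae, 4 rose and 5 fell with age on WT sections (14.9% and 15.2% of all genes). On APdE9 sections 5 rose and 3 fell (11.7% and 11.9%), and none was called between sections in neonatal cells. The prostacyclin synthase gene Ptgis rose by 4.28 ± 0.16 and 4.71 ± 0.16 (limma adjusted p = 1.11e-09 and 9.49e-10). Cd36, a fatty acid and scavenger receptor that microglia also make, fell, at -4.89 ± 0.21 and -5.18 ± 0.21 (adjusted p = 3.35e-09 and 3.11e-09), with its 3 probe sets between -6.58 and -2.60 on WT sections. Plvap, which builds the diaphragm of endothelial caveolae, was at -1.06 ± 0.14 and -1.19 ± 0.14 (adjusted p = 8.09e-05 and 4.02e-05). In adult cells 2 of the 18 were higher on APdE9 sections without overlap and 3 lower, where 20.3% of all genes were higher and 15.7% lower in that way. The lipoprotein receptor gene Scarb1 was at -0.76 ± 0.09 and the cholesterol exporter gene Abca1 at 0.62 ± 0.13. Of 19 clathrin coat and adaptor genes, which serve the other main route of endocytosis, 5 were higher and 4 lower in adult cells, with a median of -0.02. With age 5 of the 19 rose and 4 fell on WT sections, where 14.9% of all genes were called higher and 15.2% lower. On APdE9 sections 2 rose and 2 fell, where 11.7% and 11.9% were. Of these Cltb and Eps15 lost their calls without neonatal APdE9 replicate 1 (limma adjusted p = 0.109 and 0.0989) or 3 (0.0841 and 0.129) or adult APdE9 replicate 2 (0.08 and 0.166), Cltb also without adult APdE9 replicate 3 (0.0823), and Eps15 also without adult APdE9 replicate 1 (0.127) or any 1 adult WT array and with only the 6 arrays. In neonatal cells 1 of the 19 fell, Amph (-0.58 ± 0.11, adjusted p = 0.0138, and 0.0728 with only the 6 arrays compared or 0.0545 without neonatal APdE9 replicate 2).

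Targets of SRF and its cofactor MRTF, which drive contractile and cytoskeletal genes, were lower in adult cells on APdE9 sections without overlap for 12 of 16 genes and higher for none. In that way 15.7% of all genes were lower and 20.3% higher. The median of the 16 was -0.88, beside 0.05 over all genes. Among those lower was the calponin gene Cnn1 (-2.70 ± 0.38), which like Tagln and Acta2 also stands on the mural list. In neonatal cells 2 of the 16 fell, Myl9 (-1.25 ± 0.15, limma adjusted p = 0.000861) and Cnn2 (-0.71 ± 0.10, adjusted p = 0.00249), and none rose. There 2.55% of all genes were called lower and 1.21% higher. With age on WT sections 12 of the 16 rose and none fell, where 14.9% of all genes were called higher and 15.2% lower. On APdE9 sections 4 rose and 1 fell, where 11.7% and 11.9% were. Of the 4 that rose, Tgfb1i1 lost its call without neonatal APdE9 replicate 1 or adult APdE9 replicate 2 or 3. The rise on WT sections and the section difference in adult cells share the adult WT arrays. There the mean centred value of the list lay between 1.00 and 1.19, against -0.26 to -0.21 in adult cells on APdE9 sections. Of 17 targets of YAP and TEAD, regulators that respond to cell tension, 6 were lower and 1 higher in adult cells on APdE9 sections, with Ccn2 at -1.14 ± 0.14 and Ajuba at -1.05 ± 0.18, and none was called in neonatal cells. With age 6 of the 17 rose and 2 fell on WT sections, and 3 rose and 3 fell on APdE9 sections. The shares of all genes given above apply to the counts of this list as well.

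**Figure D4:**
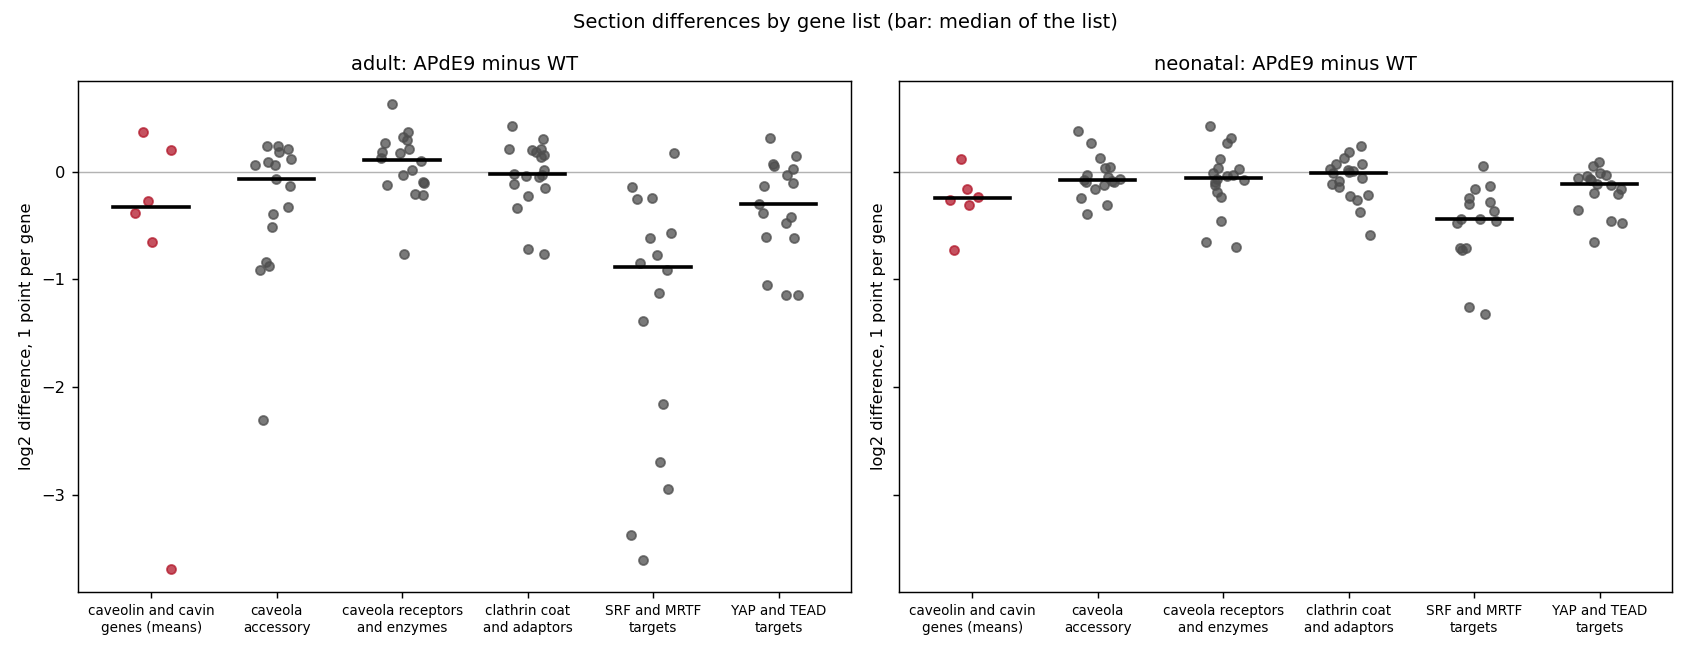
Log2 differences between APdE9 and WT sections (vertical axis) in adult cells (left) and neonatal cells (right), 1 point per gene, for the 6 caveolin and cavin genes as means of their probe sets (red) and 5 gene lists (grey), with the median of each list as a bar. Cavin2 is the lowest of the red points in both panels, and the SRF and MRTF targets have the lowest median in both.

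The 5 genes whose values were most like those of Cavin2 over the 12 arrays, by Pearson's r of gene means, were Ttc12 (0.994), Prmt8 (0.992), Grb14 (0.991), Pcdh18 (0.991) and Nox4 (0.990). Ttc12 encodes a protein needed for ciliary dynein arms, Prmt8 an arginine methyltransferase, Grb14 an adaptor of the insulin receptor, Pcdh18 a protocadherin and Nox4 an NADPH oxidase. In adult cells they were lower on APdE9 sections by -0.82 ± 0.08 for Ttc12, -2.20 ± 0.10 for Prmt8, -0.89 ± 0.09 for Grb14, -1.41 ± 0.11 for Pcdh18 and -1.84 ± 0.11 for Nox4. The 5 most like Cav1 were Crct1 (0.962), the epidermal growth factor receptor ligand gene Ereg (0.960), Ism1 (0.957), Esyt2 (0.954), which encodes a tether between the endoplasmic reticulum and the plasma membrane, and the phosphodiesterase gene Pde10a (0.953). These correlations describe the arrays, which fall into the groups of the study and share them, so they rest mainly on group differences. Of deviations from the group means, the r with Cavin2 was 0.92 for Grb14, 0.83 for Ttc12 and 0.57 for Prmt8. It was 0.53 for Pcdh18 and 0.21 for Nox4. Within the family it was -0.59 for Cav1, -0.01 for Cav2, 0.02 for Cavin1, 0.31 for Cavin3 and 0.46 for Ehd2.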

How the data were processed

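RNA of 12 pools was hybridised to one-colour Affymetrix arrays. The authors used RMA (submitters' processing notes, version not given in the sources used here). Deposited values were read as log2 signals, though no label states the base. In 4 arrays' deposited columns, recorded as a score, 6 whole numbers far outside the range of the rest were taken as damaged and set to missing, none of them in a caveolar probe set. The median over the arrays was 0 (within 1e-06) in 45031 of 45031 complete probe sets, so a filter on SD, which dropped 40%, stood in for one on dim probe sets. Of 45101 probe sets, 64 controls were left out. A single gene was given for 34945, and 34741 of these matched RefSeq.

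Models were fitted with limma 3.58.1 in R 4.3.3 (package data.table, version 1.17.8), with prior degrees of freedom of 3.98 and residual of 8. The code was also run on simulated arrays with independent noise, a check that does not cover links between same-numbered arrays. Figures used matplotlib 3.10.9. Genes of the 13 lists were tested as means of single-gene probe sets, adjusted over 18193 genes. The genes named are all probe sets of the family, up to 4 genes per list and comparison by size among those called (or, in adult cells, without overlap), and the 5 genes most like Cavin2 or Cav1. The members and lists were chosen with earlier results of these data known.

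Pairing by replicate number was checked through deviations from group means. The correlations of same-numbered arrays all passed 0.1 for section in neonatal cells (0.239, 0.183 and 0.477) and age on APdE9 sections (0.46, 0.266 and 0.503), but not in the other comparisons. Alternatives were quantile normalization, median centring, the replicate block, only the 6 arrays compared, the SD filter, 1 value per gene and leaving out each array. The number of arrays limits the precision.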

Additional observations from a re-analysis of the deposited data

Results flagged for a closer look

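Opposite differences without overlap of the groups were looked for in the 15 probe sets and in 38 named genes of the 6 lists other than cell type markers. They were found for 3 of the 38 genes and for 0 of the 15 probe sets. Over all 162 list genes, markers and genes not named included, 11 had them between the section differences and 6 between the age differences. The share over all genes of the arrays was not computed, so these counts are a description. Filip1l was at -1.48 for adult minus neonatal cells on APdE9 sections and at 1.20 on WT sections. Tagln was at -0.99 on APdE9 sections and at 1.90 on WT sections. Ap2a1, a clathrin adaptor subunit, was at 0.30 for APdE9 minus WT sections in adult cells and at -0.22 in neonatal cells. These differences between the effects were not tested.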

How the results depend on the processing

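The number of family probe sets called in neonatal cells was 1 of 15, 2 with quantile normalization, with the replicate block and with the SD filter (2 of 13), 0 with only the 6 arrays compared, and from 0 to 2 when single arrays were left out (0 without neonatal WT replicate 2, and 2 without neonatal WT replicate 1 or adult APdE9 replicate 2). With 1 value per gene 2 of 6 genes were called in neonatal cells (2.55% of all genes lower, 1.21% higher) and 6 of 6 in each age comparison (14.9% higher and 15.2% lower on WT sections, 11.7% and 11.9% on APdE9 sections). In adult cells 6 of 6 did not overlap (20.3% higher, 15.7% lower), in the comparison taken to have chosen the genes. This count is therefore a description. The age counts in this paragraph include Cavin2, whose age differences are given without a test. Leaving out single arrays gave 10 to 12 calls for age on WT sections and 9 to 10 for age on APdE9 sections, and 10 to 13 probe sets without overlap in adult cells. The replicate block gave 13 calls for age on APdE9 sections, 12 for age on WT sections and 10 without overlap in adult cells. Of 540 tested family values with an array left out, 14 lost and 3 gained a call, and of 219 under the other settings 3 lost and 6 gained one. No called value changed sign. Over all probe sets the calls in neonatal cells were 901, and from 289 (without neonatal WT replicate 2) to 1344 (replicate block). The cause of these changes was not tested. Signal over background cannot be given for centred values.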
